A study of Mus musculus with 27 samples.

Results

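Lung was compared with liver across 573 mouse genes, using the 3 arrays titled as lung and the 3 titled as liver out of 27 arrays that covered 9 tissues. Lung and liver came from wild-type male mice of the inbred strain C57BL/6, 6 to 8 weeks old, and no other treatment or allele is named for either organ. Biotin-labelled total RNA was read on an Affymetrix array made to a custom design. It holds glycogenes, which code for the enzymes that assemble or degrade glycans and for the proteins that carry or recognise them, with growth factor, cytokine, chemokine and adhesion genes beside them. Each gene was read by 1 probe set, a group of short probes for the same transcript, and where a gene had several the brightest on average across the 27 arrays was taken. Levels are the deposited intensities in arbitrary units. A difference is lung minus liver on the log2 scale, with the standard error (SE) from limma fitted over all 27 arrays, so that a positive value means a higher level in lung.

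A gene was called when its Benjamini-Hochberg adjusted p over all 573 genes lay under 0.05 and its difference was at least 1 in either direction, which is a 2-fold change. The labels do not say that the 3 arrays of an organ came from separate animals, so a p-value here reflects array-to-array spread alone, and the number of arrays limits the precision. The array also carries 839 probe sets for human genes, which give a rough picture of signal that is not specific to a mouse transcript. Some of them followed the mouse gene of the same symbol, as given below, so their upper levels may not be background alone. Their median over the 6 arrays was 206.8 and their 95th percentile was 578.8. A fold whose lower side lies near that median compares signals and does not give the exact ratio of transcript amounts.

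The lung is a thin epithelium laid on a dense bed of capillaries, and its epithelial cells secrete surfactant with its own defence lectins into the airspace. The liver is built mostly of hepatocytes, which secrete plasma proteins and growth factors into the blood, clear glycoproteins through lectin receptors and couple drugs and bilirubin to glucuronic acid. That coupling draws on UDP-glucuronic acid, an activated sugar made from glucose through phosphoglucomutase, UDP-glucose pyrophosphorylase and UDP-glucose dehydrogenase.

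Promoters of 4 of the genes with large differences are shown because each carries a short motif that was searched for in all promoters, and because 1 gene is lung-high and 3 are liver-high. They come from RefSeq (GRCm38.p6) and run from 250 bases before to 50 bases after the annotated start of transcription, printed 5′ to 3′ on the gene's strand. Capitals mark the motifs. In Cxcl15 (chr5:90794284-90794583, plus strand) they are the TATA box TATAAA at -27 and the NKX2-1 core CTCAAG at 45. In Ugt2b5 (chr5:87140291-87140590, minus strand) they are the C/EBP motif TTGCNNAA, read on the opposite strand, at -74. In Khk (chr5:30921309-30921608, plus strand) and Ugt1a6a (chr1:88134559-88134858, plus strand) they are the HNF1 motif GTTAAT at -60 and, read on the opposite strand, at -50.
Cxcl15: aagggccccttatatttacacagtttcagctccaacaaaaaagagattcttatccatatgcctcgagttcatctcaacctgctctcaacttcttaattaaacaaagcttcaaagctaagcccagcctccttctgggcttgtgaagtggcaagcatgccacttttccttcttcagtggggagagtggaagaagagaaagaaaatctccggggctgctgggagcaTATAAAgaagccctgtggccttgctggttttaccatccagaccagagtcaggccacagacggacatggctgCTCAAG
Ugt2b5: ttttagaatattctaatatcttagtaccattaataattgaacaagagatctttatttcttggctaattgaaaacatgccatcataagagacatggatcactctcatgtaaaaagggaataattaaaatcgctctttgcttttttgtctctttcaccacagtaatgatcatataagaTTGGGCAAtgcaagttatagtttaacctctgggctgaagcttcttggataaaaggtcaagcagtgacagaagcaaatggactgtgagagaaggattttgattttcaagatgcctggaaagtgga
Khk: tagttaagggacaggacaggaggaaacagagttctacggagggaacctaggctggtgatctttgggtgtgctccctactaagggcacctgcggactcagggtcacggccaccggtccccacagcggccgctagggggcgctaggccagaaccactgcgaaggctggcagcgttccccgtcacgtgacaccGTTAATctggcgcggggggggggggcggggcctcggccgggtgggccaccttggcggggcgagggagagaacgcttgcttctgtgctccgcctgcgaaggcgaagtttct
Ugt1a6a: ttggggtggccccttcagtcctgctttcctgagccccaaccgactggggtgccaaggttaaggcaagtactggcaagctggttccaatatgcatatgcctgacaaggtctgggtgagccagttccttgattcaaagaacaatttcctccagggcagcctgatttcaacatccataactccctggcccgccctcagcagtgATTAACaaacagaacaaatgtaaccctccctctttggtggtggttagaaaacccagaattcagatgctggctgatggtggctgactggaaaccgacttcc

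The motif search covered the 15 genes with the largest difference in each direction. Of these, 10 lung-high and 15 liver-high genes were matched in the promoter table, with 13 and 16 promoter windows, since a gene can have several starts. The lung-high genes Thbd, Sftpd, Icam2, Pecam1 and Acvrl1 had no match and are missing from the counts. GTTAAT, searched on both strands, stood in 0 of the 13 lung-high and 3 of the 16 liver-high windows (Khk, Egfr and Ugt1a6a), and in 7.1% of all 32851 promoter windows of the same length. TTGCNNAA on both strands stood in 0 of 13 and 1 of 16 (Ugt2b5), against 10.8% of all windows. CTCAAG on both strands stood in 5 of 13 lung-high windows (B4galt4, Bgn, Cxcl15, and 1 of the windows each of Srgn and Tmsb10) and 3 of 16 liver-high windows (Igf1, Msmo1 and Ugdh), against 15.9% of all windows. TATAAA on the sense strand stood in 3 of 13 (Cxcl15, Kitl and Srgn) and 0 of 16, against 8.3% of all windows. No motif of the 4 contains another, and a match describes the letters and not a bound site.

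Of the 573 genes, 81 were called higher in lung (14.1%) and 27 were called lower in lung (4.71%), 108 in all (18.8%). In all 108 called genes the 3 lung arrays and the 3 liver arrays did not overlap. Over all genes, called or not, every lung array lay above every liver array in 196 (34.2%) and below in 147 (25.7%). The median difference over the 573 genes was 0.03. Among called genes, 5 were higher and 2 lower in lung by 4 or more on the log2 scale, and 48 higher and 16 lower differed by between 1 and 2. Below, counts of higher and lower genes are counts of calls. Each is to be read beside the 14.1% called higher and the 4.71% called lower over all genes. Without the size threshold, 172 genes were higher and 111 lower at an adjusted p under 0.05. The split between directions moved with the scaling of the arrays: quantile normalization, which shifted the median difference of all genes by -0.21, called 67 higher and 44 lower, and median centring, with a shift of -0.13, called 74 higher and 33 lower.

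**Figure D1:**
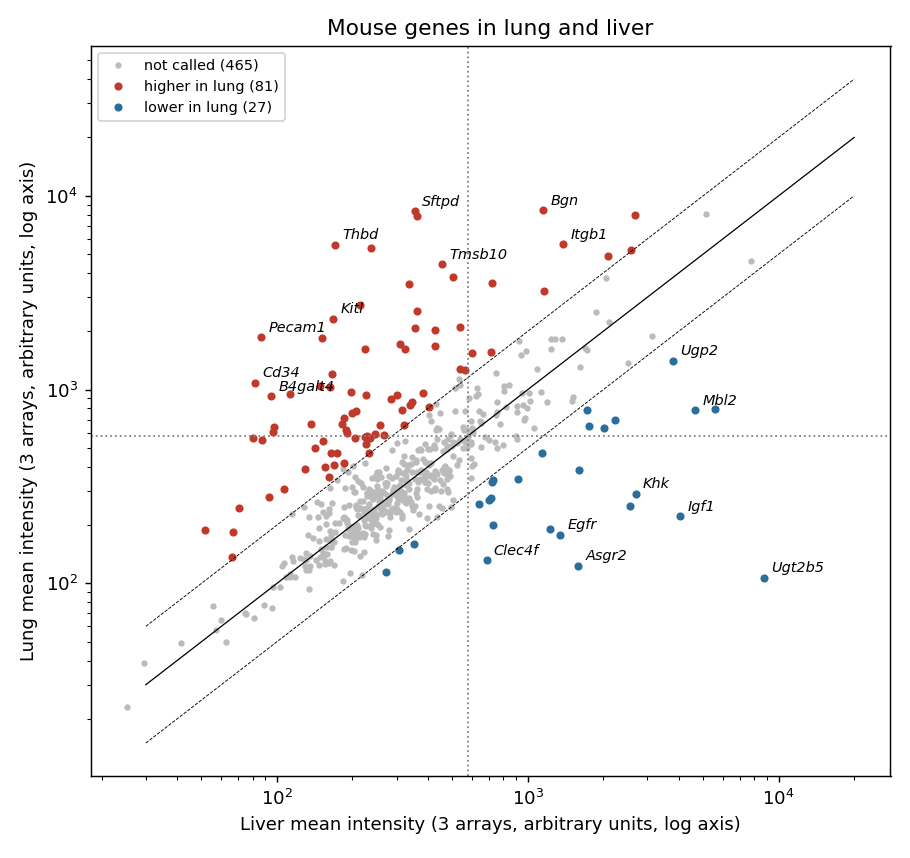
Mean intensity of each of the 573 mouse genes in lung (vertical axis) and liver (horizontal axis), both on log axes, with the 81 called higher in lung in red, the 27 called lower in blue and the rest in grey. The solid line marks equal levels, dashed lines a 2-fold difference and dotted lines the 95th percentile of human probe sets (578.8), and most called genes lie above that level on their high side.

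The arrays themselves were close in overall level. The median over all probe sets was 228.3 to 236.7 in lung and 227.9 to 233.1 in liver. Over the mouse genes it was 312.1 to 323.6 in lung and 281.9 to 302.0 in liver. Across genes, which are not independent replicates, Pearson's r was 0.963 to 0.982 between lung arrays, 0.976 to 0.982 between liver arrays and 0.571 to 0.610 between a lung and a liver array. Each of the 6 arrays was nearest to an array of its own organ, and no arrays held identical values. Marker genes matched the labels: the 2 measured of 9 lung epithelium markers (Sftpd and Cxcl15) were higher in lung and the 3 measured of 10 hepatocyte markers (Asgr2, Mbl1 and Mbl2) were lower. Summed over the list, lung epithelium markers reached 10672 to 19450 in lung and 629 to 791 in liver, and hepatocyte markers reached 1138 to 1183 in lung and 7305 to 10735 in liver.

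The collectins, secreted lectins that bind sugars on microbes, divided between the organs: Sftpd was far higher in lung, and Mbl1 and Mbl2 were far higher in liver. Sftpd, surfactant protein D of the airspace lining, measured 9299, 9354 and 6282 in the 3 lung arrays and 406.7, 363.7 and 294.9 in the 3 liver arrays. Every lung array stood far above every liver array, with a difference of 4.54 ± 0.14 (SE), or 23.2-fold (limma adjusted p = 2.67e-18). The other Sftpd probe set read 8280 on average in lung and 52.5 in liver, 157.6-fold apart, so the size of this fold depends on the probe set and its direction does not.

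Mbl1, a mannose-binding lectin of plasma, measured 247.1, 253.1 and 249.4 in lung and 2694, 2738 and 2233 in liver. The lung arrays were nearly equal and lay just above the human probe set median, and the difference was -3.35 ± 0.10, or 10.2-fold lower in lung (adjusted p = 1.40e-18). Mbl2, the other plasma mannose-binding lectin, measured 806.8, 771.9 and 768.9 in lung and 6384, 3248 and 4336 in liver, 5.73-fold lower in lung without overlap. Cxcl15, a chemokine of lung epithelium, measured 9172, 10096 and 4390 in lung and 384.7, 369.9 and 334.0 in liver. Lung replicate 3 was the lowest lung array for both Cxcl15 and Sftpd, yet stood over 10 times above the liver arrays in each, and Cxcl15 differed by 4.35 ± 0.20, or 20.5-fold.

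Endothelial genes stood high in lung: 5 of 7 measured endothelial markers were called higher in lung, with a median difference of 3.66, and none was called lower. Thbd, thrombomodulin, the anticoagulant receptor of vessel walls, is not among these 7 and belongs to the vascular and C-type lectin lists. It measured 5625, 4464 and 6690 in lung and 178.6, 150.6 and 182.4 in liver. All liver arrays lay under the human probe set median, and the difference of 5.02 ± 0.14, or 32.5-fold (adjusted p = 4.61e-19), was the largest positive one among the 573 genes. Icam2, an adhesion ligand on endothelium, measured 5349, 4757 and 5954 in lung and 255.5, 204.0 and 254.6 in liver, a 22.5-fold difference. Pecam1, a junction protein of endothelial cells, measured 1929, 1778 and 1871 in lung and 90.8, 89.1 and 79.4 in liver, 21.5-fold apart. Neither gene had overlapping arrays, and the spread within an organ was small beside the gap.

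The same pattern held for Cd34, a sialomucin of capillaries and progenitor cells, with 1145, 884.7 and 1230 in lung and 82.7, 79.9 and 82.0 in liver (13.2-fold). Tek, the angiopoietin receptor, measured 2504, 2530 and 3166 in lung and 223.0, 203.8 and 217.7 in liver (12.7-fold, adjusted p = 5.57e-17). Emcn, endomucin, an endothelial mucin, measured 1178, 1209 and 1210 in lung and 181.6, 153.5 and 160.6 in liver (7.27-fold). None of the 3 genes had a lung array near a liver array. The endothelial selectins were not called: Sele differed by 0.34 ± 0.11 with overlapping arrays, and Selp differed by -0.29 ± 0.09, lower in lung without overlap (adjusted p = 0.0135), both short of the size threshold. Mrc1, the mannose receptor and the only measured gene of 7 listed markers of liver sinusoid endothelium, differed by 0.27 ± 0.29 (adjusted p = 0.445), and its sign turned with quantile normalization (-0.075). Summed endothelial markers reached 11914 to 14100 in lung and 1445 to 1636 in liver. In whole-organ RNA, fewer cells of a type and less RNA per cell cannot be told apart, here or in any group below.

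Signalling genes of vessels moved the same way: of 15 measured vascular growth factors and receptors, 9 were called higher in lung and none lower, with a median of 1.32. This list shares genes with others, so its count is not separate from theirs. The 9 include Thbd and Tek, described above, and Tek is also an endothelial marker. Pdgfra and Pdgfrb are also counted among the fibroblast and smooth muscle markers below. Acvrl1, an endothelial receptor of the TGF-beta family, measured 2009, 1543 and 1965 in lung and 158.2, 139.4 and 156.6 in liver, 12.1-fold apart without overlap. Vegfa, Vegfd, Angpt1 and Pdgfb, ligands for vessel and mural cells that are named after their values were seen, were 3.88-fold, 3.56-fold, 2.96-fold and 2.5-fold higher in lung. Vegfd had another probe set with a difference of -0.17 that was not called. Pdgfra and Pdgfrb, receptors of fibroblasts and mural cells, were 7.07-fold and 2.31-fold higher, Pdgfra with 557.7, 563.9 and 574.8 in lung and 79.0, 86.1 and 75.1 in liver. Counts for this group were 8 to 10 higher and 0 lower over the settings tried that kept all genes.

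**Figure D2:**
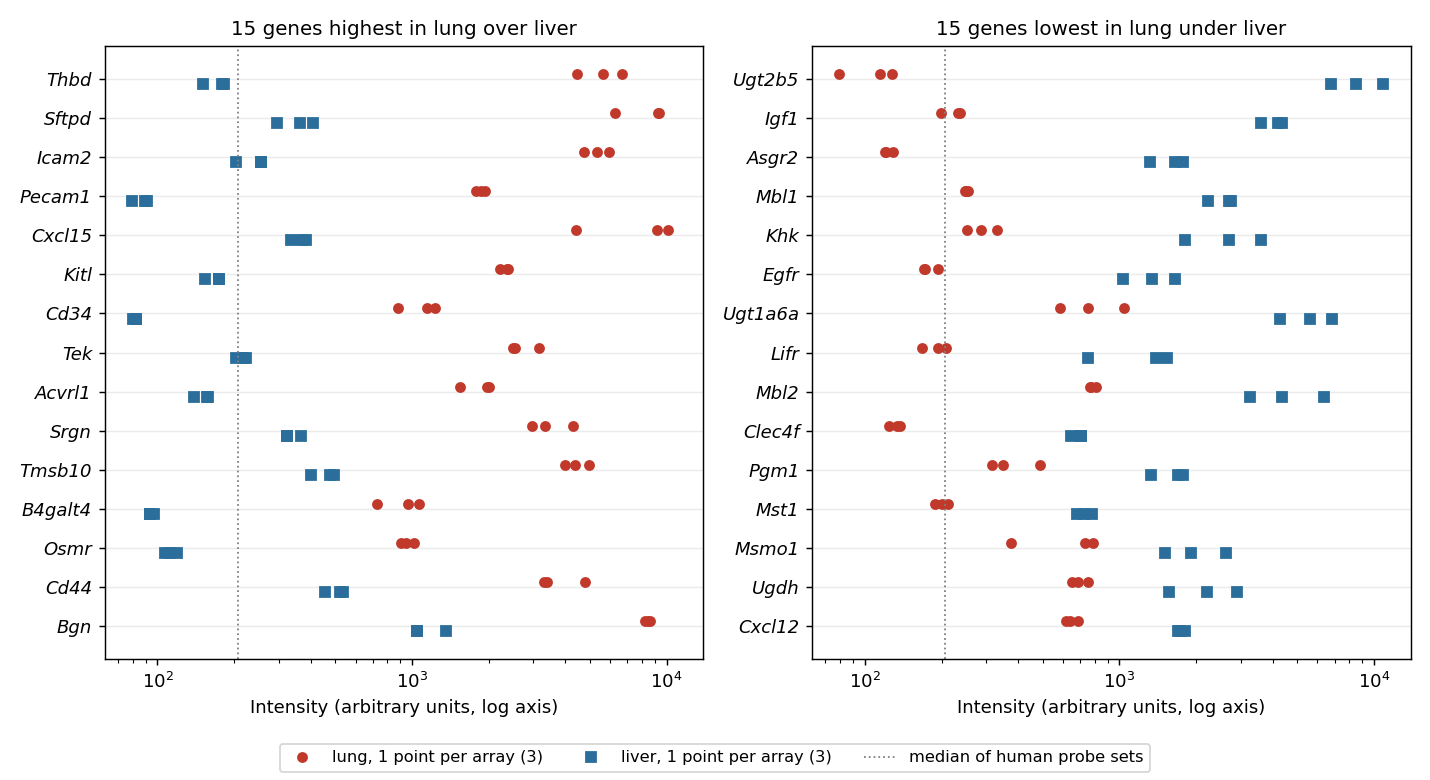
Intensity on each lung array (red circles) and each liver array (blue squares), on log axes, for the 15 genes with the largest positive difference (left) and the 15 with the largest negative one (right), with the human probe set median (206.8) dotted. In none of the 30 genes do lung and liver arrays overlap, and in many the lower organ lies at or under the dotted line.

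Every called adhesion receptor was higher in lung. Of 26 measured selectins, integrins and related receptors, 11 were called higher and none lower, with a median of 0.34 beside 0.03 over all genes. Icam2, Pecam1 and Cd34, already counted as endothelial markers, are among the 11. Cd44, the hyaluronan receptor, measured 3381, 4787 and 3296 in lung and 520.0, 533.4 and 455.6 in liver, 7.50-fold apart. Itga6, Itgb1 and Itga3, subunits of laminin and matrix receptors named after their values were seen, were 7.18-fold, 4.06-fold and 2.37-fold higher. Icam1 (5.0-fold) and Vcam1 (2.45-fold), ligands for leukocyte integrins also named after their values were seen, and Itgb2, the leukocyte integrin chain (4.80-fold), were higher as well. On the other probe sets, the log2 differences were 4.09 for Icam1 and 2.13 for Vcam1, against 2.32 and 1.29 on the chosen ones. Selplg, the P-selectin ligand of leukocytes, was 2.06-fold higher, but fell short of the threshold with quantile normalization (0.79), with median centring (0.91) and without liver replicate 3 (0.94). The alpha chains Itgav, Itga1, Itga4 and Itga5, also named after their values were seen, were not called, at -0.50, 0.29, 0.16 and 0.23.

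Of 7 measured fibroblast and smooth muscle markers, 4 were called higher in lung (median 1.01). Of 22 proteoglycan core proteins 3 were (median -0.01), a share near the 14.1% called higher over all genes. Bgn, biglycan, a small matrix proteoglycan, measured 8589, 8419 and 8242 in lung and 1043, 1042 and 1363 in liver. The lung arrays were within a narrow band and the difference was 2.88 ± 0.20, or 7.38-fold. Dcn, decorin, its close relative, measured 4034, 5610 and 6161 in lung and 2540, 2480 and 2729 in liver. Its 2.01-fold difference sat on the size threshold, and the call was lost under 7 alternatives, down to 0.30 with quantile normalization. Srgn, serglycin, the proteoglycan of secretory granules in blood and endothelial cells, measured 2966, 3319 and 4286 in lung and 367.1, 322.0 and 322.7 in liver, 10.3-fold apart (adjusted p = 1.84e-12). Tmsb10, an actin-binding thymosin, measured 4356, 3977 and 4974 in lung and 400.6, 492.3 and 476.3 in liver (9.72-fold). Summed fibroblast and smooth muscle markers reached 14563 to 16497 in lung and 4554 to 5116 in liver. Most of both sums came from Bgn and Dcn, with means of 8417 and 5268 in lung and 1149 and 2583 in liver.

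Ligands and their receptors differed together in some systems and apart in others. Kitl, stem cell factor, measured 2381, 2365 and 2209 in lung and 174.9, 174.1 and 154.0 in liver, 13.8-fold apart (adjusted p = 8.37e-16). Kit, its receptor, measured 874.6, 632.9 and 813.6 in lung and 190.6, 212.2 and 217.2 in liver, 3.71-fold apart. Ligand and receptor were therefore both called higher in lung, with no overlap between organs in either.

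The insulin-like growth factor system ran in opposite directions. Igf1, the growth factor that the liver releases into the circulation, measured 232.4, 236.5 and 199.2 in lung and 4360, 3598 and 4212 in liver. The lung arrays stood at the level of the human probe set median, and the difference was -4.19 ± 0.19, or 18.2-fold lower in lung (adjusted p = 3.59e-15). Igf1r, its receptor, measured 744.0, 513.7 and 1023 in lung and 222.3, 185.1 and 192.4 in liver, 3.67-fold higher in lung. The call for Igf1r rests on the chosen probe set: the other one differed by 0.01, and the mean of both gave 0.94, under the threshold. Igfbp5, an IGF-binding protein, was 6.77-fold higher in lung, and Igfbp1, a binding protein secreted by hepatocytes, was 2.05-fold lower, with 143.9, 165.7 and 138.9 in lung and 352.2, 275.0 and 294.4 in liver. The Igfbp1 call was lost with an offset of 16 (-0.96), without lung replicate 3 (-0.98) and without liver replicate 1 (-0.93). Of the 16 measured genes of the EGF, HGF and IGF axis, 2 were higher and 4 lower (median -0.24).

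The other 2 lower genes of that axis were Egfr and Mst1. Egfr, the epidermal growth factor receptor, measured 172.6, 193.1 and 170.3 in lung and 1035, 1659 and 1344 in liver, 7.41-fold lower in lung (adjusted p = 8.37e-16). Mst1, macrophage-stimulating protein, which hepatocytes secrete, measured 188.3, 212.9 and 200.7 in lung and 781.9, 681.0 and 723.9 in liver, 3.63-fold lower. Lung arrays for Egfr and Mst1 lay near or under the human probe set median.

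The receptors of the oncostatin and leukaemia inhibitory factor family split. Osmr, the oncostatin M receptor chain, measured 944.7, 1014 and 903.9 in lung and 119.6, 112.5 and 107.0 in liver, 8.44-fold higher in lung. Lifr, the leukaemia inhibitory factor receptor chain, measured 167.5, 208.5 and 193.4 in lung and 753.8, 1539 and 1389 in liver, 6.20-fold lower in lung. Il6st, the signalling chain that pairs with both and is named after its values were seen, differed by 0.27 ± 0.18 with overlapping arrays. The further Lifr probe set showed no such gap, with means of 172.7 in lung and 148.3 in liver and a difference of 0.22, so that the Lifr result rests on 1 of its probe sets.

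Over the 46 measured interleukins, interferons and their receptors, 5 were higher, 1 was lower and the median was 0.04. Ifngr1, the ligand-binding chain of the interferon gamma receptor, was 4.90-fold higher in lung, and Kitl, Osmr and Kit are described above. Il10ra, the interleukin 10 receptor chain and the last of the 5, named after its values were seen (1.10), was called in opposite directions by its 2 probe sets: the other one had means of 330.3 in lung and 974.8 in liver, a difference of -1.46. No direction can be given for it. Among 22 TNF superfamily genes, 3 were higher, a share near the 14.1% over all genes, and none lower (median -0.01). Tnfsf13b and Tnfsf13, B cell survival factors, were higher by 3.54-fold and 2.53-fold, and Fas, the death receptor, by 3.16-fold.

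Among 29 measured chemokines, 6 were higher in lung and 2 lower, with a median of -0.18. Besides Cxcl15, Ccl21b, a chemokine of lymphatic vessels, measured 2023, 2335 and 1864 in lung and 363.5, 371.3 and 327.2 in liver (5.84-fold), and its near-identical gene copies may share the probe set. Cxcl14, a chemokine of epithelia, was 3.10-fold higher on the chosen probe set and 9.58-fold on the other. Pf4, a platelet chemokine, was 3.24-fold higher on the chosen probe set and was not called on the other (1.08-fold). Ccl5 and Cx3cl1, named after their values were seen, differed by 1.57 and 1.16, while their other probe sets differed by 0.14 (not called) and 2.12. Cxcl12, which holds leukocytes and progenitors in tissue, measured 619.2, 641.8 and 684.4 in lung and 1816, 1705 and 1726 in liver, 2.70-fold lower in lung. Ccl9 was 2.19-fold lower, with means of 159.6 in lung and 352.6 in liver. Of 15 chemokine receptors, Ccr2, the receptor of inflammatory monocytes, was higher (3.70-fold) and Ccr6 was lower (2.38-fold), with a median of -0.10. Ccr2 measured 160.2, 195.7 and 212.0 in lung and 54.9, 58.9 and 40.7 in liver, so that even its lung levels lay about the human probe set median, and its other probe set gave 2.35-fold.

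Of 7 macrophage and monocyte markers, Clec7a, the beta-glucan receptor dectin, and Ccr2 were higher (3.70-fold each) and Clec4f was lower, with a median of 0.27. Of 6 neutrophil markers only Ltf, lactoferrin, was called (2.37-fold, median 0.45), with 362.0, 830.2 and 227.6 in lung and 178.6, 160.0 and 179.8 in liver. Lung replicate 2 carried that call, which was lost without it (0.73). Csf3r, another of the 6 and named after its values were seen, was not called on its chosen probe set (0.52). Its other probe set was called higher (1.64), with means of 51.3 in lung and 14.0 in liver, both under the human probe set median. No gene of 3 T cell markers (median 0.06) or 4 NK cell markers (median 0.14) was called by limma, although 1 of the 3 and 3 of the 4 had an unadjusted p under 0.05, and also an adjusted p under 0.05, with differences short of the size threshold. Cd22, a B cell siglec, was called among 4 B cell markers (2.33-fold, median -0.02) and among 6 siglecs (median -0.01), but its other probe set differed by 0.28 and quantile normalization brought it to 0.36. Pf4 was the 1 called gene of 3 platelet markers (median -0.01), and its other probe set differed by 0.11.

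Summed marker levels stand beside these results. Macrophage and monocyte markers summed to 2229 to 2820 in lung and 2050 to 2371 in liver, and neutrophil markers to 2738 to 3506 in lung and 2186 to 2407 in liver. B cell markers summed to 4686 to 5899 in lung and 2362 to 2792 in liver, most of it from the chosen Cd22 probe set: without Cd22 the other 3 summed to 438 to 460 in lung and 466 to 506 in liver. Platelet markers summed to 1178 to 1534 in lung and 862 to 940 in liver. T cell markers (813 to 1038 in lung, 788 to 904 in liver) overlapped between organs, and NK cell markers (1119 to 1211 in lung, 1213 to 1270 in liver) lay just below liver in lung. Their part in the gene results was not tested.

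The lectin receptors Asgr2 and Clec4f were called lower in lung, while the mannose receptor Mrc1 was not called. Asgr2, a subunit of the asialoglycoprotein receptor by which hepatocytes clear desialylated glycoproteins, measured 129.4, 121.0 and 119.9 in lung and 1657, 1319 and 1785 in liver. All lung arrays lay under the human probe set median, and the difference was -3.67 ± 0.26, or 12.8-fold lower in lung (adjusted p = 1.65e-11). Clec4f, a galactose-binding receptor of Kupffer cells, the resident macrophages of the liver, measured 133.8, 124.2 and 137.2 in lung and 703.5, 646.9 and 703.2 in liver, 5.20-fold lower. Of 29 measured C-type lectins and collectins, 5 were higher and 4 lower in lung (median 0.11). The lower 4 were Asgr2, Clec4f, Mbl1 and Mbl2. The higher 5 were Thbd and Sftpd, Clec7a, Clec4a2 (2.83-fold, though 0.10 on its other probe set) and Pkd1 (1.24 on the log2 scale, named after its values were seen). None of 4 galectins (median -0.04) was called by limma, with 1 at an unadjusted and also an adjusted p under 0.05. Among human galectin probe sets, named after their values were seen, LGALS1 was called higher in lung (1.72). Both LGALS9 probe sets were called lower (-1.73 and -1.61), and those of the other galectins were not called. Canx, a chaperone of glycoprotein folding and the only measured gene of the lectin chaperone list, named after its values were seen, was not called (-0.33).

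Pgm1, Ugp2 and Ugdh, enzymes on the route to UDP-glucuronic acid, were each called lower in lung, as were 2 of the 3 measured transferases that use it. These genes come from different lists and were grouped after their values were seen. Pgm1, a phosphoglucomutase that links glucose metabolism to UDP-glucose, measured 347.3, 487.3 and 314.7 in lung and 1773, 1333 and 1700 in liver, 4.23-fold lower in lung. Ugp2, UDP-glucose pyrophosphorylase, measured 1507, 1641 and 1083 in lung and 4604, 2981 and 3784 in liver, a difference of -1.43 ± 0.18, or 2.69-fold lower (adjusted p = 5.29e-07). Ugdh, UDP-glucose dehydrogenase, measured 650.0, 689.5 and 753.8 in lung and 2897, 1566 and 2212 in liver, 3.10-fold lower (adjusted p = 1.51e-07). Lung stayed below liver on every array at these 3 steps, and the other probe sets of Ugdh and Ugp2 were called in the same direction, at -2.60 and -1.31.

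The 2 called transferases that consume UDP-glucuronic acid had larger folds. Ugt1a6a, which glucuronidates phenols, measured 750.9, 1046 and 583.7 in lung and 6842, 4278 and 5582 in liver, 7.09-fold lower in lung. Ugt2b5, a transferase for steroids and drugs, measured 114.5, 127.2 and 79.4 in lung and 8518, 6750 and 10882 in liver. Lung lay under the human probe set median on every array, and the difference of -6.35 ± 0.38, or 81.5-fold lower in lung (adjusted p = 4.79e-13), was the largest of all 573 genes in either direction. Ugt2a1, the remaining measured member of the 3, named after its values were seen, differed by -0.87 and was not called, and it passed the size threshold with quantile normalization and with median centring, where 3 of 3 were lower. Close relatives within the Ugt1a and Ugt2b families may contribute to these signals through shared sequence.

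**Figure D3:**
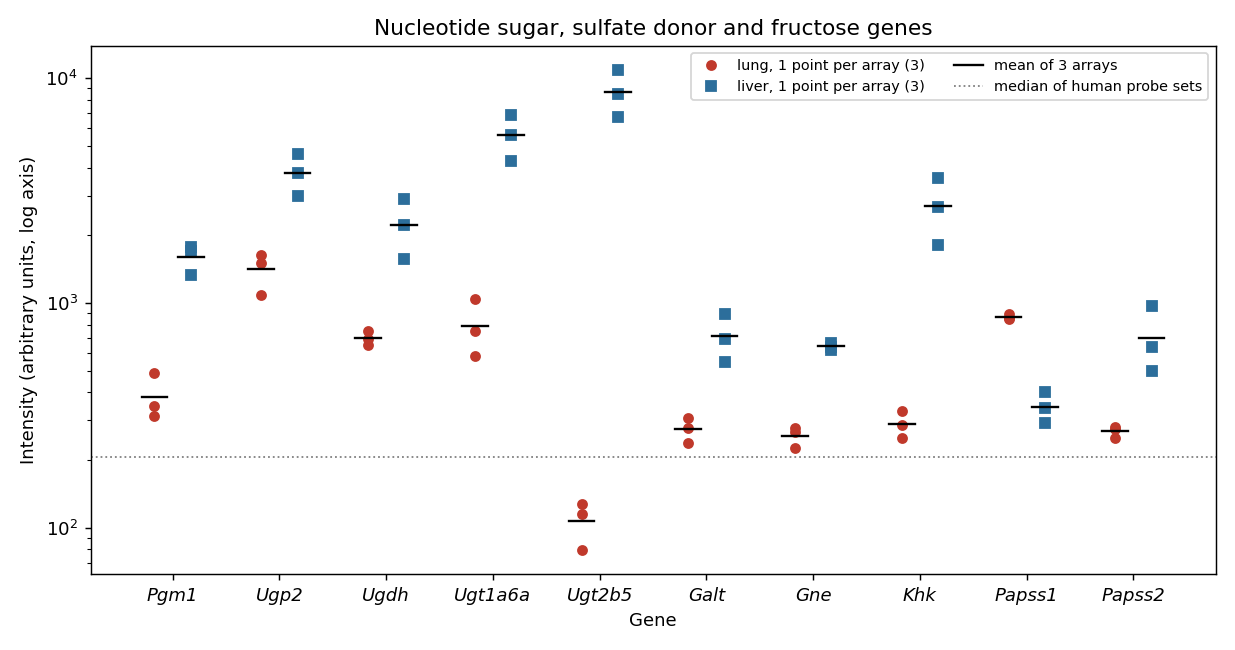
Intensity on each lung array (red circles) and each liver array (blue squares) for 10 genes of nucleotide sugar, sulfate donor and fructose metabolism, on a log axis, with black bars for means of 3 arrays and the human probe set median (206.8) dotted. Papss1 is the 1 gene of the 10 with lung above liver.

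Galt, Gne and Khk, at other entries into sugar metabolism, were lower in lung too. Galt, of galactose metabolism, was 2.55-fold lower in lung, with 239.0, 278.3 and 307.6 in lung and 894.0, 548.7 and 688.3 in liver. Gne, the entry enzyme of sialic acid synthesis, named after its values were seen, was 2.51-fold lower, with 267.4, 276.9 and 225.9 in lung and 639.5, 620.0 and 665.1 in liver. Khk, ketohexokinase, which traps fructose in liver, measured 285.7, 331.4 and 251.8 in lung and 3595, 1803 and 2683 in liver, 9.00-fold lower without overlap. Of 27 measured genes of nucleotide sugar synthesis and transport, 5 were lower and 1 higher, while the median was -0.07. Nans, Cmas, Gmds and Slc35a1 of the same list, named after their values were seen, differed by -0.07, -0.48, -0.20 and 0.05. Hk1, a hexokinase also named after its values were seen, measured 409.3, 365.4 and 389.6 in lung and 179.0, 185.6 and 183.3 in liver. Its arrays did not overlap, but the spread over all tissues gave 1.09 ± 0.50 (adjusted p = 0.0791), which was not called. Its other probe set was called higher, with means of 312.9 in lung and 63.1 in liver (2.32, adjusted p = 0.00520 over all mouse probe sets).

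The paired enzymes that make the sulfate donor PAPS ran in opposite directions. Papss1 measured 893.6, 846.2 and 858.4 in lung and 403.2, 291.0 and 342.1 in liver, 2.53-fold higher in lung. Papss2 measured 280.7, 275.8 and 251.5 in lung and 639.8, 500.2 and 965.7 in liver, 2.51-fold lower in lung. Neither had overlapping arrays. Msmo1, an enzyme of cholesterol synthesis, measured 732.2, 784.4 and 375.0 in lung and 2612, 1516 and 1908 in liver, 3.27-fold lower.

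B4galt4, a galactosyltransferase, measured 968.2, 730.6 and 1068 in lung and 93.8, 93.6 and 97.3 in liver, 9.60-fold apart (adjusted p = 2.70e-15). It was the only one of 18 measured galactosyltransferase and poly-N-acetyllactosamine genes called higher (median 0.19). The 1 called lower, B3galt2, measured 421.8, 446.5 and 537.1 in lung and 734.1, 1978 and 697.9 in liver. Liver replicate 2 carried it, and without that array the difference was -0.62 and not called, while the other B3galt2 probe set differed by 0.71.

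Among 18 measured sialyltransferases, which cap glycans with sialic acid, 4 were higher and 1 lower in lung, with a median of -0.14. St8sia4, a polysialyltransferase, measured 625.2, 693.8 and 494.9 in lung and 105.1, 102.0 and 81.0 in liver, 6.27-fold apart (adjusted p = 7.05e-12). St3gal6, whose product is part of selectin ligands, measured 864.6, 1196 and 853.1 in lung and 214.9, 190.7 and 189.0 in liver, 4.85-fold apart (adjusted p = 9.66e-12). St6galnac2 (3.00-fold) and St3gal2 (2.5-fold), which act on O-glycans, were also higher, though the other St3gal2 probe set differed by 0.77 and was not called. St3gal3, an enzyme for N-glycans, went the other way, with 318.0, 318.4 and 370.0 in lung and 675.7, 770.5 and 719.4 in liver, 2.15-fold lower. St6gal1, the enzyme that sialylates hepatocyte-secreted glycoproteins, named after its values were seen, differed by -0.38 ± 0.14 and was not called.

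Fut8, which adds core fucose to N-glycans, was 2.19-fold higher in lung, with 362.9, 399.6 and 302.1 in lung and 160.4, 166.0 and 156.8 in liver, and was the only 1 of 11 fucosyltransferases called (median 0.25). B3galnt1, which builds the glycolipid globoside, was 3.53-fold higher, and with St3gal2 made 2 of 15 glycosphingolipid genes (median -0.13). That share is near the 14.1% called higher over all genes. Galnt2, a starter of mucin-type O-glycans, was 2.01-fold higher, 1 of 9 genes in its list (median 0.21), and lost its call under 6 alternatives (0.82 to 0.96). Hexa, a lysosomal hexosaminidase chain, was also 2.01-fold higher, 1 of 22 lysosomal glycan-degrading genes (median 0.03), and lost its call under 8 alternatives (0.73 to 0.98). No call was made by limma among 7 N-glycan branching and trimming genes (median -0.07) or 6 genes of lipid-linked oligosaccharide synthesis and transfer (median 0.32), where 2 and 4 genes had an unadjusted p under 0.05, and 2 and 3 an adjusted p under 0.05.

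Called sulfotransferases of heparan sulfate went in both directions. Hs2st1, the uronic acid sulfotransferase, measured 1567, 1655 and 1386 in lung and 635.3, 582.4 and 585.4 in liver, 2.55-fold higher in lung. Hs3st1, which completes the antithrombin-binding site, measured 355.3, 445.3 and 389.4 in lung and 159.0, 139.3 and 166.7 in liver, 2.56-fold higher. Hs6st1, a glucosamine sulfotransferase, measured 396.4, 271.6 and 373.3 in lung and 995.1, 843.6 and 915.9 in liver, 2.67-fold lower in lung. These were the 3 called of 23 heparan and chondroitin sulfate genes (median 0.02). The Hs2st1 difference was 0.78 with quantile normalization and 3.28 on its other probe set.

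Among 33 genes of the TGF-beta superfamily, 3 were higher and 1 lower (median 0.01). Acvrl1 is described with the vessel genes. Bmp4, a morphogen, was 4.14-fold higher with 936.1, 879.9 and 992.0 in lung and 237.4, 215.5 and 225.6 in liver, and Tgfb1 was 3.30-fold higher with an uneven 596.1, 266.5 and 638.4 in lung and 152.1, 136.0 and 136.6 in liver. Amh, a gonadal hormone, was 2.13-fold lower in lung, with means of 340.1 in lung and 724.7 in liver on its only probe set. Whether that signal comes from Amh transcript was not tested. Of 27 Wnt, Frizzled, Notch and Hedgehog genes, the Wnt receptors Fzd4 (5.23-fold) and Fzd2 (2.85-fold) were higher and none was lower (median -0.12). None of 26 fibroblast growth factors and receptors was called by limma, and their differences ran from -0.69 to 0.62 (median -0.01), with 9 at an unadjusted and 6 at an adjusted p under 0.05.

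**Figure D4:**
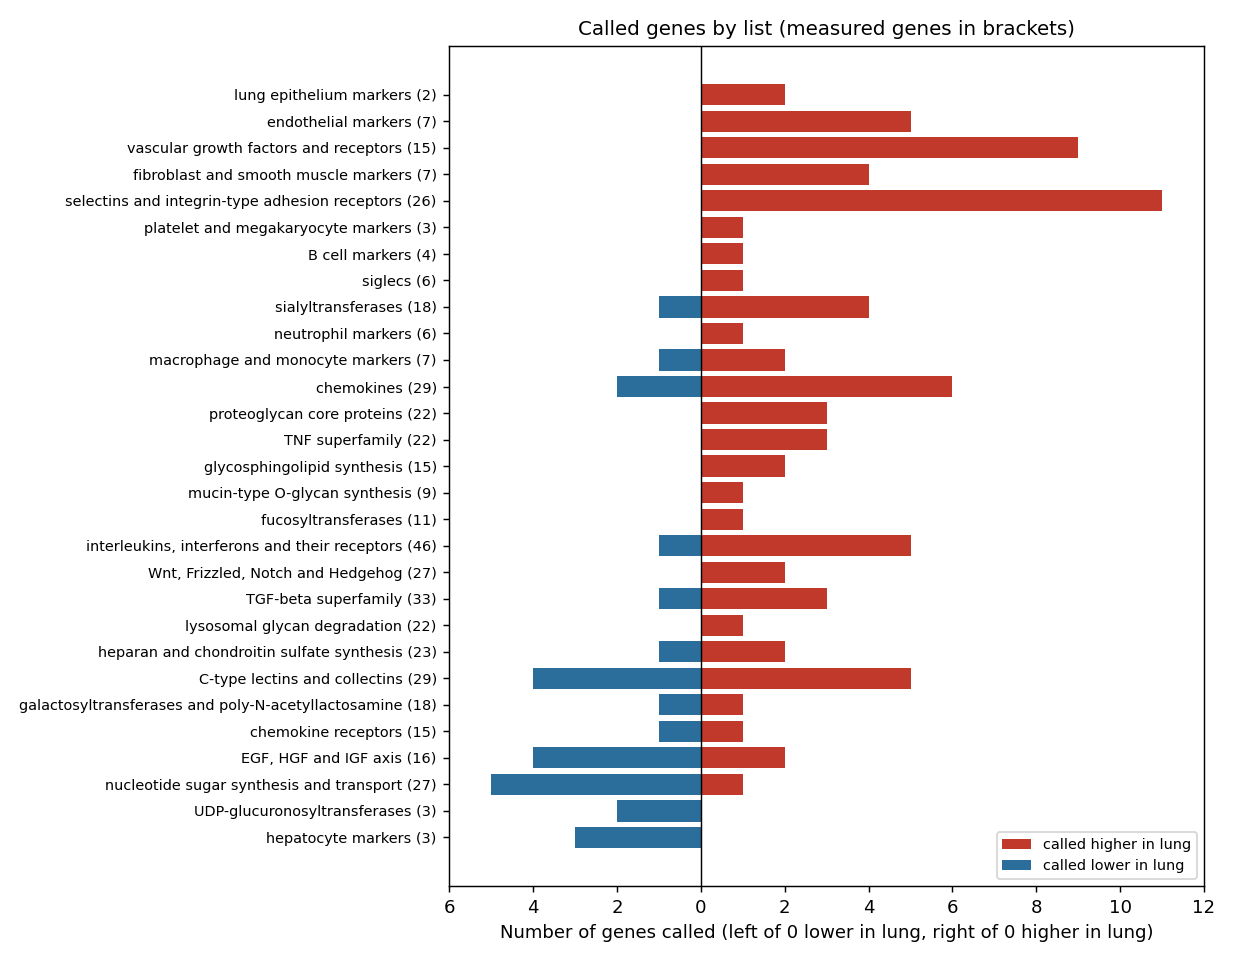
Number of genes called higher in lung (red, right of 0) and lower in lung (blue, left of 0) in each gene list with at least 1 call, ordered by the net share, with the number of measured genes in brackets. Endothelial, vascular and adhesion lists have calls on the lung side alone, as do others such as the TNF superfamily and fucosyltransferase lists. The hepatocyte and UDP-glucuronosyltransferase lists have calls on the liver side alone. Over all genes, 81 of the 108 calls are on the lung side.

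Other genes of high level showed little difference between the organs. Among genes in the upper quartile by mean level over the 6 arrays, the 5 smallest differences belonged to Sdc4, a syndecan (0.00 ± 0.21), Bcan, a proteoglycan core protein (0.01 ± 0.16), Manba, a lysosomal mannosidase (0.01 ± 0.20), Arsa, a lysosomal sulfatase (0.02 ± 0.15), and B3galt4, a ganglioside galactosyltransferase (-0.02 ± 0.13). Lung and liver arrays overlapped in all 5, with Arsa at 819.4, 753.1 and 731.8 in lung and 765.9, 723.4 and 779.9 in liver. Quantile normalization moved Sdc4, Bcan, Manba and Arsa to between -0.42 and -0.31, so their values near 0 hold for the deposited scaling.

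How far each organ stood from the rest of the body was read against the mean of the other 7 tissues (bone marrow, brain, kidney, lymph node, spleen, testis and thymus). Lung differed from that mean in 61 genes (10.6%), higher in 52 (9.08%) and lower in 9 (1.57%). Liver differed in 76 (13.3%), higher in 28 (4.89%) and lower in 48 (8.38%). Lung and liver share those 7 tissues as a baseline, so the values are given side by side. Thbd stood at 4.58 in lung and -0.44 in liver relative to the 7, Cxcl15 at 4.40 in lung, Sftpd at 4.35 in lung and -0.18 in liver, and Pecam1 at 3.47 in lung. Ugt2b5 stood at 5.25 in liver, Igf1 at 4.09, Ugt1a6a at 3.74, Asgr2 at 3.70 and Mbl1 at 3.41. Ugt2b5 was also called lower in lung than the mean of the 7, so its gap has a part on each side.

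For other genes called higher in lung, liver lay below the rest of the tissues. Tmsb10 stood at -2.98 in liver relative to the 7 tissues, Srgn at -2.28, Itgb2 at -2.27, St8sia4 at -2.17, and Selplg and Clec4a2 at -2.03 each. For Itgb2 the lung value was -0.01 and for Fut8 it was -0.34 in lung and -1.47 in liver. Of the 81 genes higher in lung, lung had the highest mean of all 9 tissues in 38 and liver the lowest in 21, with both true in 10 and neither in 32. Of the 27 genes lower in lung, liver had the highest mean in 22 and lung the lowest in 4. The highest mean of the 81 lay in bone marrow for 10, lymph node for 8, spleen for 7, brain for 6, kidney for 5, thymus for 5 and testis for 2. These ranks use the same arrays as the calls and are descriptions.

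**Figure D5:**
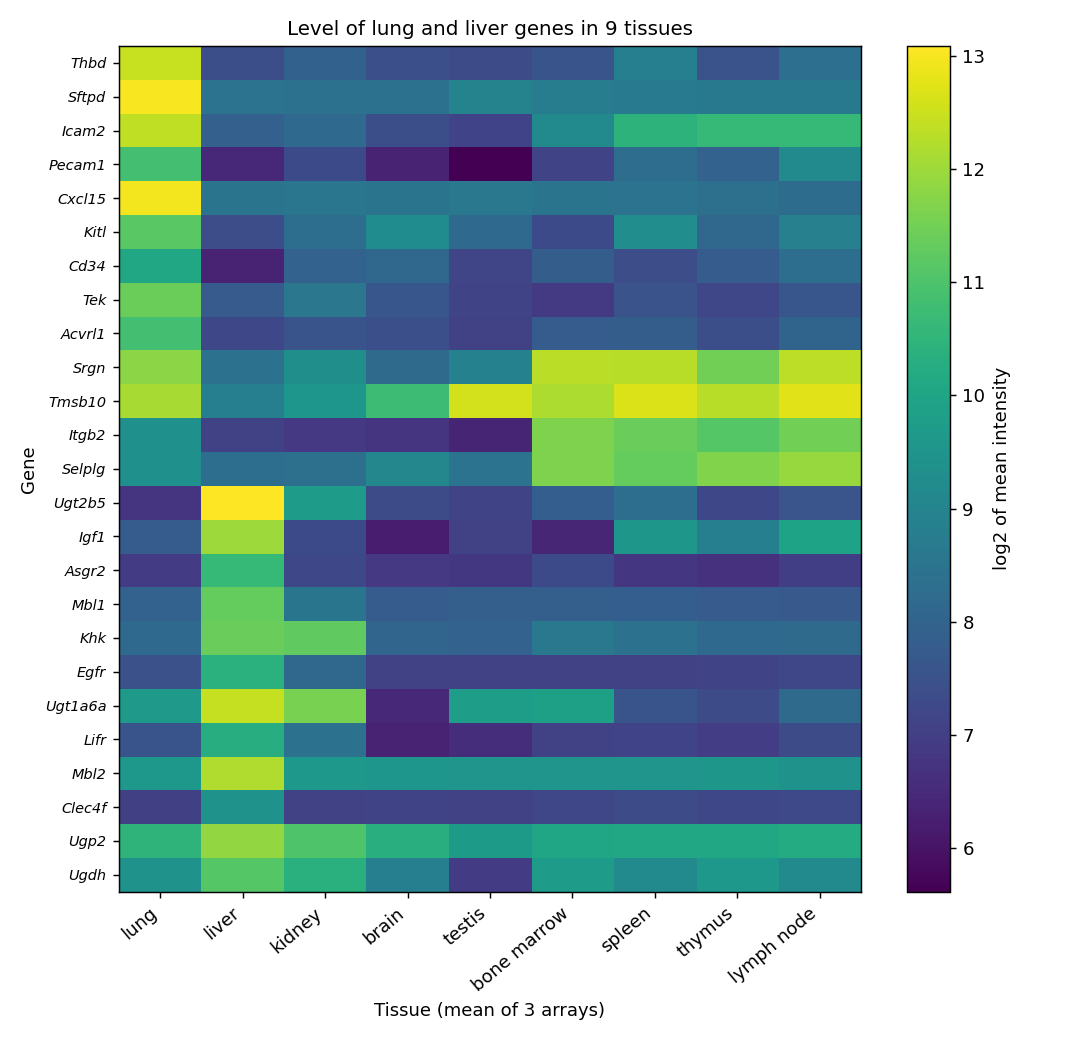
Colour shows the log2 of the mean intensity of 3 arrays for 25 genes (rows) in lung, liver and the other 7 tissues (columns), with yellow for the highest levels. Thbd, Sftpd and Cxcl15 are bright in lung alone, Srgn, Tmsb10, Itgb2 and Selplg are about as bright or brighter in the blood-forming and lymphoid tissues, and Ugt1a6a, Khk and Ugp2 are bright in kidney as well as liver.

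Levels on the low side of the calls were often near background. Of the 81 genes higher in lung, 58 had a lung mean over the 95th percentile of human probe sets and 38 had a liver mean under their median. Of the 27 lower genes, 24 had a liver mean over that percentile and 9 had a lung mean under the median. A further probe set existed for 26 of the 81 genes and for 5 of the 27. It gave the same call in 16 of the 26, no call in 9 and the opposite call in 1 (Il10ra). It gave the same call in 3 of the 5 (Mbl1, Ugdh and Ugp2) and no call in Lifr and B3galt2.

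The human probe sets themselves differed little: 18 of 839 were called (2.15%), 12 higher in lung (1.43%) and 6 lower (0.715%). Of the 18, 12 carried the symbol of a measured mouse gene, which was called in the same direction in 8 and not called in 4. The largest, named after their values were seen, were ITGA6, with means of 2135 in lung and 90.0 in liver (4.58), TMSB10, with 4154 in lung and 380.9 in liver (3.44), and IGF1, with 209.1 in lung and 2161 in liver (-3.37). The mouse probe sets of those 3 genes differed by 2.84, 3.28 and -4.19.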

How the data were processed

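The authors deposited linear intensities for 1813 probe sets on 27 arrays. How they corrected background, summarised probes or scaled the arrays is not given in the sources, and no detection calls were used. The platform annotation gave 1 symbol to 1563 probe sets, several to 2 and none to 248, and those without a single symbol were not used. Matching by gene identifier to RefSeq (GRCm38.p6) updated 1 symbol and left 702 mouse probe sets for 573 genes, of which 122 had several. Intensities under 16 were raised to 16 (1 value in the 6 arrays, 2 in all 27) and log2 taken.

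limma 3.58.1 in R 4.3.3 (lmFit, eBayes) was fitted to the 27 arrays with a coefficient for each tissue. Contrasts were lung against liver and each organ against the other 7 tissues averaged with equal weight, with Benjamini-Hochberg adjustment over genes within each contrast. The same fit was run on all mouse probe sets and on the human ones. The script was tested on simulated data. The genes, the 37 lists and the tests were chosen with earlier results of these data known, so lists are described by counts and medians, without a test.

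Named were the 15 largest called genes in each direction, all measured markers of lung epithelium, hepatocytes, endothelium and liver sinusoid, up to 4 called genes per list and direction, every called sialyltransferase, fucosyltransferase and UDP-glucuronosyltransferase, the 5 smallest differences in the upper quartile of levels, and the 5 largest genes called in both the lung against liver comparison and that of either organ against the other 7. Genes outside this rule are marked where they appear.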

Additional observations from a re-analysis of the deposited data

How the results depend on the processing

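Lung against liver gave 108 calls (81 higher and 27 lower in lung), and 61 of the 81 and 25 of the 27 were called in all 16 alternatives that could test them, none with the opposite call. Without a minimum difference the count was 283 (172 higher, 111 lower). Quantile normalization lost 14 calls and gained 17, with 44 lower. Against the other 7 tissues, lung had 61 calls, and 40 with only the 382 genes of higher mean level tested. Its 9 lower genes became 14 with quantile normalization, 16 with median centring and 5 with those 382 genes, and ran from 5 (without lung replicate 3) to 12 without single arrays. The 382 genes are fewer to call from, and the cause of the other shifts was not tested. Leaving out single arrays gave 106 to 113 calls in all, 79 to 86 higher and 27 to 31 lower. Among 84 named genes, 1263 alternative values kept direction and side of the threshold, 37 lost the call and 24 changed sign, all 24 in genes whose difference was not called. With quantile normalization these were Mrc1 (-0.075), Sdc4 (-0.31), Bcan (-0.37), Manba (-0.35) and Arsa (-0.42). With median centring they were Sdc4 (-0.13), Bcan (-0.12), Manba (-0.12) and Arsa (-0.11). With array weights they were Sdc4 (-0.12) and Bcan (-0.00754), and with the mean of probe sets Manba (-0.0103). Without single arrays, Sdc4 ran from -0.16 to 0.22, Bcan from -0.00812 to 0.0436, Manba from -0.22 to 0.25, B3galt4 from -0.0925 to 0.0809 and Arsa from -0.0263 to 0.0553. With the title number as a replicate block the count stayed at 108, and no call changed. Deviations from the organ mean correlated across genes with r of -0.05, -0.08 and -0.01 between same-numbered lung and liver arrays. Between differently numbered ones r ran from -0.07 to 0.11. Array noise can hold r near 0 in paired arrays too, so these values cannot show whether the numbers pair the arrays. With 3 arrays an organ and no detection calls in the table, low levels cannot be separated from background.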
